A study of Mus musculus with 17 samples.

Results

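The genes described here encode the 3 chains of fibrinogen (Fga, Fgb and Fgg) and 6 proteins that start, restrain or reverse clotting at the surface of cells: F3, Tfpi, Thbd, Plat, Plau and Plaur. They were taken by symbol from a table of gene expression in mouse kidney, where each symbol had 1 entry, so that they make up 9 of its 22561 genes. The table holds 1 library per mouse. Ctrl mice were male C57BL/6 (n = 5), Case mice were male db/db mice on the BKS background (BKS.Cg-Dock7m +/+ Leprdb/J, n = 6), and Dapa mice were db/db mice of the same strain given dapagliflozin at 1 mg/kg/day (n = 6). All were 8 weeks old at the start and were treated for 6 weeks, the Ctrl and Case mice with the same volume of saline by gavage. Dapagliflozin inhibits the glucose transporter SGLT2 of the proximal tubule. The db/db mouse lacks a functional leptin receptor and becomes obese and diabetic. The Ctrl mice are of another inbred strain than the db/db mice, so diabetes and strain cannot be told apart in any difference from Ctrl.

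Fibrinogen is a plasma protein built from pairs of an alpha, a beta and a gamma chain, which the genes Fga, Fgb and Fgg encode. The liver makes nearly all of it, and it is an acute phase protein whose genes respond to interleukin-6. Thrombin turns it into fibrin, the mesh of a clot, after tissue factor (F3) has started coagulation. Tissue factor pathway inhibitor (Tfpi) and thrombomodulin (Thbd) hold that step back, and plasmin, released from plasminogen by tissue-type (Plat) and urokinase-type (Plau) activators, dissolves the mesh. The kidney is a known source of urokinase, which tubules release into urine.

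The 3 fibrinogen genes lie side by side on chromosome 3, within 42140 bases of the mm10 build that the table uses. Fgg occupies chr3:83007724-83015049 and Fga chr3:83026076-83033627, both on the forward strand, and Fgb occupies chr3:83040141-83049863 on the reverse strand. The gap between Fgg and Fga is 11026 bases and that between Fga and Fgb is 6513 bases. The sequences before their start sites are shown because the 3 genes had the largest log2 fold changes of the members in Case against Ctrl, and the letters of factors known to act on fibrinogen genes can be looked for in them. They were read from RefSeq annotation of GRCm38.p6, the same assembly as mm10, and run 5′ to 3′ on the gene's own strand. That of Fgg is chr3:83007474-83007723 (forward), that of Fga chr3:83025903-83026075 (forward) and that of Fgb chr3:83049864-83050113 (reverse).
Fgg: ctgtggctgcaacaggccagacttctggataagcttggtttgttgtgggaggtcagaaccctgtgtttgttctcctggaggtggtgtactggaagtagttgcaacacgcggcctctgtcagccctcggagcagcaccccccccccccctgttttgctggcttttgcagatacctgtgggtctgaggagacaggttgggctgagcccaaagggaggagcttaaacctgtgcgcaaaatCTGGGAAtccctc
Fga: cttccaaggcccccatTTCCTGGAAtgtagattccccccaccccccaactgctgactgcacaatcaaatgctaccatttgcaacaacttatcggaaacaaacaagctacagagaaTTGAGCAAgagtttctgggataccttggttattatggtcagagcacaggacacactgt
Fgb: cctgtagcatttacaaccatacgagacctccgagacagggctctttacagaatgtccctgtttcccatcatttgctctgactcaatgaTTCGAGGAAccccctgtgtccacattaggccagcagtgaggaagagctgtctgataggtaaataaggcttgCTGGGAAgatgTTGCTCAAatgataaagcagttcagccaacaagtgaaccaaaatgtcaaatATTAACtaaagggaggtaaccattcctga
Capitals mark letters that match a motif searched on both strands of the 250 bases before each RefSeq start. For Fga the last 77 of these bases are not printed, since GENCODE M21 places them in the first exon. The motif CTGGGAA, the core of interleukin-6 response elements bound by STAT3, lies 91 to 85 bases before the start of Fgb and 13 to 7 bases before that of Fgg, and these letters are not in the window of Fga. The GAS-like motif TTCNNNGAA lies 234 to 226 bases before the start of Fga and 162 to 154 before that of Fgb, and is not in the window of Fgg. TTGCNNAA, a C/EBP motif, is present 80 to 73 bases before Fgb and, on the other strand, 135 to 128 bases before Fga. GTTAAT, the core of HNF1 sites, is found on the other strand 29 to 24 bases before Fgb and 43 to 38 before Fga, there in the stretch left out. TATAAA is in none of the 3 windows. None of the matches overlap each other. Such matches are common: of 32851 RefSeq promoter windows of this length, 9.1% hold CTGGGAA, 7.02% hold TTCNNNGAA, 9.56% hold TTGCNNAA, 6.43% hold GTTAAT and 12.4% hold TATAAA. The matches describe the letters and show no binding.

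The library totals were 13039535 to 17779635 counts, with group medians of 16403995 in Ctrl, 15826611 in Case and 14514719 in Dapa. In 7 libraries (Ctrl 1, 3 and 4, Case 1, and Dapa 10, 11 and 12) the deposited values of 3 entries left out here, which are broken over several lines, did not match their counts, by factors of 0.725 to 1.03. These libraries are given apart below where their values move with a result. Proximal tubule markers were abundant in every mouse, with a summed level of 1320 FPKM or more over 7 genes. The mitochondrial share of counts was 17.9 to 20.4% in Ctrl, 19.8 to 27.3% in Case and 19.7 to 27.6% in Dapa, and its part in differences from Ctrl was not tested. FPKM is the count of a gene scaled by its length and by the library's total, so that levels can be compared between genes.

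The members covered a wide range of levels in normal kidney. By median FPKM in the Ctrl mice Plau stood first with 142.8, ahead of Plat with 19.6, and neither overlapped the gene below it. Fgg (6.68), Fga (6.60) and F3 (6.16) came next, with ranges that overlap, followed by Thbd (4.64), which overlaps them. Tfpi (0.684), Fgb (0.532) and Plaur (0.510) had the lowest levels, and their Ctrl ranges overlap as well. The gene lengths behind these FPKM values differ from the GENCODE M21 exon length for 7 of the 9 genes, most for Plat (2531 against 6241 bases) and Tfpi (11765 against 5463), which bears on the order between genes and not on comparisons of 1 gene between mice. With GENCODE lengths, chosen after seeing the data, Plau stayed first with a Ctrl median of 141.3 FPKM, while Fga (9.23), F3 (8.20), Plat (7.94) and Fgg (7.61) followed with overlapping ranges, so Plat no longer stood apart.

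**Figure D1:**
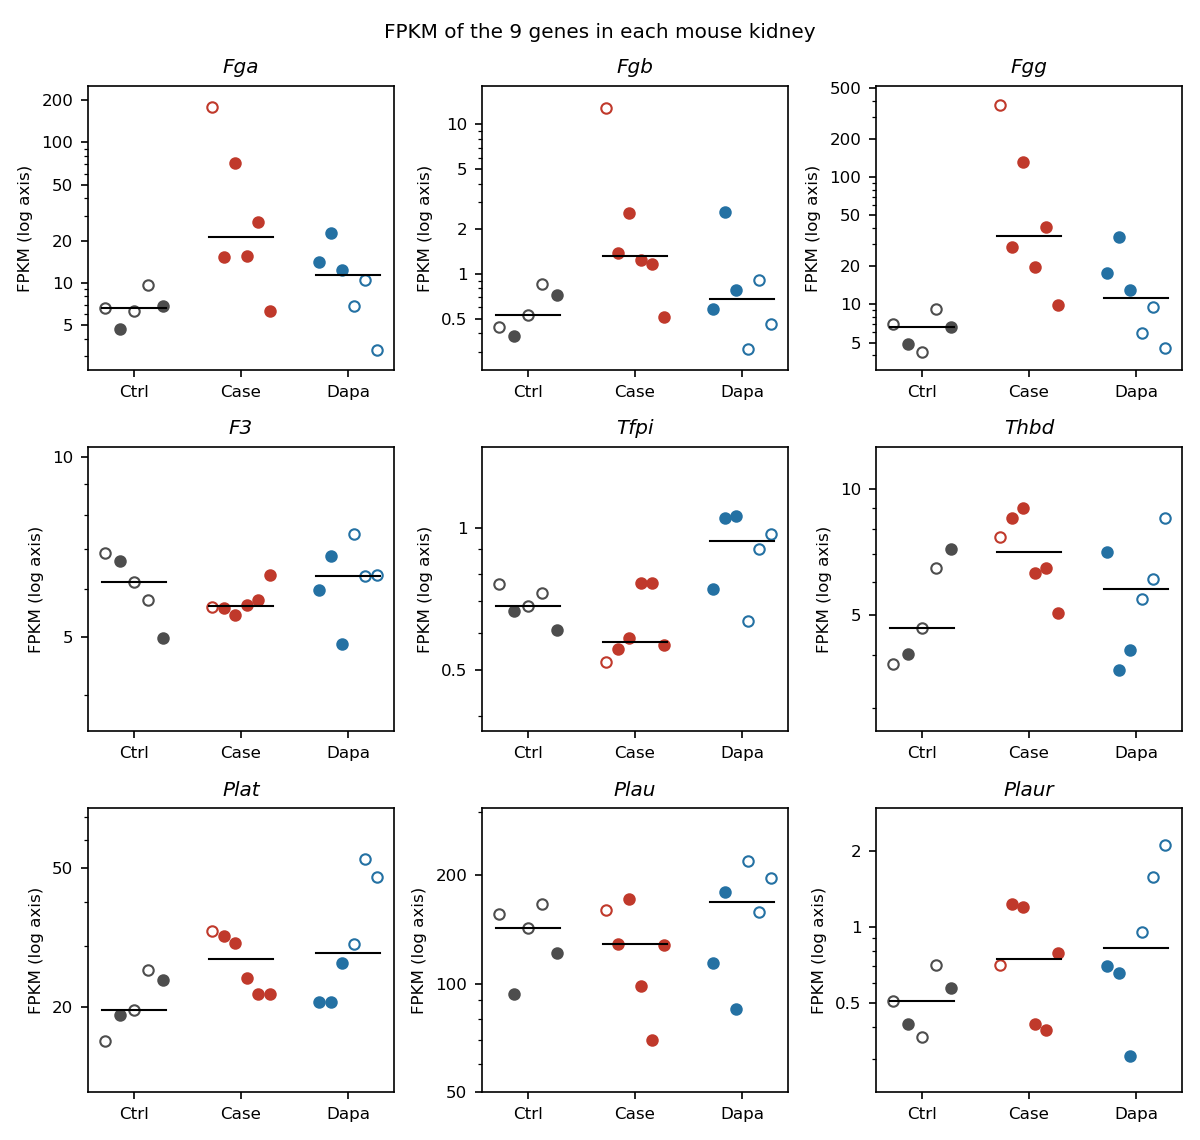
FPKM of each of the 9 genes (log axes with their own ranges) in the 5 Ctrl, 6 Case and 6 Dapa mice, in the order of their numbers from left to right. Each point is a mouse, open points are the 7 libraries whose 3 broken entries did not match, and lines are group medians. Fgg reached 373.4 FPKM in Case 1 and stayed at or below 9.13 in Ctrl, while F3 lay between 4.86 and 7.41 in all mice.

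Fgg and Fga rose in kidneys of untreated db/db (Case) mice against Ctrl mice, Fgb had a higher mean without passing the test, and all 3 chains differed widely between Case mice. Fgg, the gamma chain, measured 7.05, 4.91, 4.22, 9.13 and 6.68 FPKM in Ctrl mice 1 to 5. In Case mice 1 to 6 it measured 373.4, 28.2, 131.7, 19.7, 40.8 and 9.95 FPKM. Every Case mouse was above every Ctrl mouse, but the highest Case value was 37.5 times the lowest, against 2.16 times in Ctrl. The mean rose from 6.40 ± 1.93 (SD, n = 5) to 100.6 ± 140.7 FPKM (SD, n = 6), which is 15.7-fold. The log2 fold change was 3.88 ± 0.86 (SE), with q = 0.0134, where q is the Benjamini-Hochberg adjusted p of edgeR's quasi-likelihood test over all genes. In whole kidney, more cells that express a gene and more RNA per cell cannot be told apart.

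Fga, the alpha chain, measured 6.60, 4.66, 6.28, 9.68 and 6.89 FPKM in Ctrl mice 1 to 5. In Case mice 1 to 6 it measured 180.1, 15.4, 71.4, 15.4, 27.2 and 6.32 FPKM. Of the 6 Case mice 5 lay above all Ctrl mice, and Case 6 lay within the Ctrl range. The rise, 2.86 ± 0.74 on the log2 scale or 7.72-fold in mean FPKM, passed the test (q = 0.0248). It did so by a small margin: without Ctrl 1, 2, 3 or 5 the adjusted p was 0.0581, 0.0640, 0.0636 and 0.0605.

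Fgb, the beta chain, was the least abundant chain, with counts of 24 to 55 in Ctrl and 35 to 700 in Case. It measured 0.437, 0.384, 0.532, 0.854 and 0.716 FPKM in Ctrl mice 1 to 5. In Case mice 1 to 6 it measured 12.9, 1.38, 2.54, 1.24, 1.17 and 0.517 FPKM, with Case 6 again the only Case mouse inside the Ctrl range. Its log2 fold change of 2.40 ± 0.75 just missed the threshold (q = 0.0509), while DESeq2 gave q = 0.0131. Leaving out Case 4, 5 or 6 took it past the threshold (q = 0.0492, 0.0401 and 0.0318).

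Case 1 held the highest value of all 3 chains, and is among the 7 libraries named above. Without it the log2 fold changes were 2.71 for Fgg (q = 0.0118), 1.86 for Fga (q = 0.0311) and 1.11 for Fgb (q = 0.0577). With a term for the 7 libraries in the fit they were 3.95 (q = 0.00817), 3.01 (q = 0.0131) and 2.53 (q = 0.0195). In the 5 Case libraries outside the 7, Fgg measured 9.95 to 131.7 FPKM, above the 4.91 and 6.68 of the 2 such Ctrl libraries.

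Of the 9 members, 2 thus changed between Case and Ctrl, both upwards and both by more than 2-fold. At an unadjusted p under 0.05 there were 4, the chains and Plat, against 28.7% of all genes. Over all 14582 genes tested 13% passed the adjusted test, 6.09% upwards and 6.91% downwards, and 3.79% did so with a change of 2-fold or more. Fgg was the only member whose Case and Ctrl values did not overlap, which was so for 8.43% of all genes, 4.97% upwards and 3.46% downwards. The median log2 fold change over the 3 chains was 2.86 and that over all genes 0.03.

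**Figure D2:**
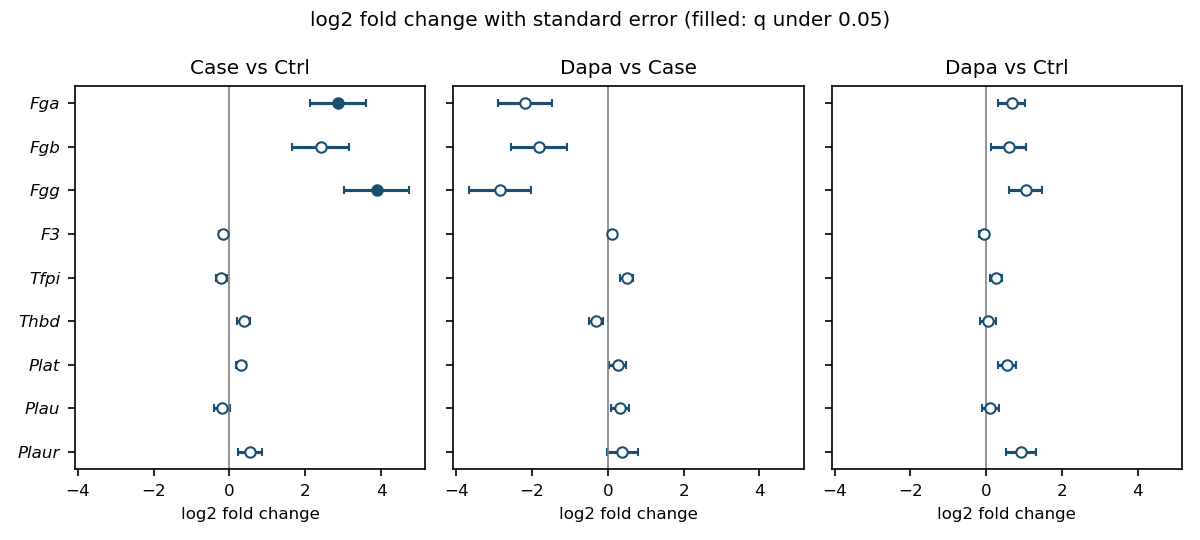
Log2 fold change (horizontal axis) of the 9 genes in Case and in Dapa against Ctrl and in Dapa against Case, with standard errors as bars. Filled points passed q under 0.05, which are Fga at 2.86 and Fgg at 3.88 in Case against Ctrl, and all other points are open.

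In dapagliflozin-treated db/db mice the 3 chains had lower means than in untreated db/db mice, but the difference did not pass the test across all genes. Fgg measured 17.6, 34.2, 12.9, 5.89, 9.53 and 4.50 FPKM in Dapa mice 7 to 12. Fga measured 14.1, 22.8, 12.3, 6.83, 10.5 and 3.33 FPKM, and Fgb 0.582, 2.61, 0.775, 0.315, 0.910 and 0.463 FPKM in the same mice. Dapa and Case values overlapped for each chain, although 3 of 6 Dapa mice lay below every Case mouse for Fgg, 2 for Fgb and 1 for Fga. No overlap at all between these groups was seen for 0.48% of genes, 0.316% higher in Dapa and 0.165% lower.

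The log2 fold changes from Case to Dapa were -2.84 ± 0.82 for Fgg (q = 0.23), -2.18 ± 0.71 for Fga (q = 0.253) and -1.81 ± 0.74 for Fgb (q = 0.336). None of the 9 members passed edgeR's quasi-likelihood test here, and 0.0% of 14573 genes did. At an unadjusted p under 0.05 there were 4 members, the 3 chains and Tfpi, against 12.9% of all genes, and DESeq2 called 1 member, Fgg (q = 0.0454). Without Case 1 the log2 fold changes from Case to Dapa were -1.68 for Fgg (q = 0.415), -1.20 for Fga (q = 0.482) and -0.53 for Fgb (q = 0.727). The Case mice enter both comparisons, so a high Case value raises one and lowers the other.

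Set against Ctrl, the chains in Dapa mice remained higher on average without passing the test. The log2 fold change was 1.04 ± 0.44 for Fgg (q = 0.0899), 0.67 ± 0.36 for Fga (q = 0.18) and 0.59 ± 0.47 for Fgb (q = 0.368). For Fgg and Fga 4 of 6 Dapa mice lay above all Ctrl mice. Dapa 12 had the lowest Fgg and Fga of its group, and without it both passed (log2 fold change 1.23 with q = 0.0347 for Fgg, and 0.87 with q = 0.0319 for Fga). Dapa 8 had the highest value of every chain, and without it Fgb stood at -0.036, Fgg at 0.56 and Fga at 0.37. Within Dapa the 3 mice among the 7 libraries (10, 11 and 12) had lower Fgg, 4.50 to 9.53 FPKM, than the other 3 with 12.9 to 34.2 FPKM, and lower Fga, 3.33 to 10.5 against 12.3 to 22.8 FPKM. With the 7-library term, added after seeing the data, Dapa against Ctrl was 0.69 for Fgg (q = 0.225), 0.47 for Fga (q = 0.353) and 0.40 for Fgb (q = 0.558).

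None of the 9 members was called between Dapa and Ctrl by edgeR or by DESeq2, where edgeR called 29.1% of 14647 genes, 14.2% higher in Dapa and 14.9% lower, and 7.18% with a change of 2-fold or more. No member had Dapa and Ctrl values that did not overlap, against 14.5% of all genes, 9.79% higher and 4.74% lower. At an unadjusted p under 0.05 there were 3, Fgg, Plat and Plaur, against 41.1% of all genes.

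The balance between the chains also differed between groups. Per length, Fga made up 49.6% ± 4.21 of the summed FPKM of the 3 chains in Ctrl (SD, n = 5), Fgg 46.2% ± 4.69 and Fgb 4.23% ± 0.773. In Case, Fgg was the most abundant chain of every mouse, with 60.8% ± 4.25 of the sum (SD, n = 6), while Fga fell to 36.7% ± 3.87 and Fgb to 2.46% ± 0.869. In Dapa the shares were 51.1% ± 5.06 for Fgg, 45.3% ± 5.57 for Fga and 3.58% ± 1.42 for Fgb (SD, n = 6).

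The Fgg share was 50.1, 49.3, 38.3, 46.4 and 46.8% in Ctrl mice 1 to 5 and 65.9, 62.7, 64.0, 54.1, 59.0 and 59.3% in Case mice 1 to 6, so these groups did not overlap. It was higher in Case by 14.7 points (two-sided exact permutation test, p = 0.00433, q = 0.0195 over 9 tests), and 0.00433 is the smallest p that 5 against 6 mice allow. The Fga share was lower in Case by 12.9 points (exact p = 0.00433, q = 0.0195), and again no Case mouse reached the Ctrl range. The Fgb share was lower by 1.77 points (exact p = 0.00866, q = 0.0195), with overlap.

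From Case to Dapa the Fgg share fell by 9.76 points (exact p = 0.00866, q = 0.0195) and the Fga share rose by 8.64 points (exact p = 0.0130, q = 0.0234). Dapa mice ran from 45.2 to 57.3% for Fgg, overlapping the Case mice. Dapa 10, 11 and 12, which are among the 7 libraries, had 45.2, 45.5 and 54.25%. Dapa 7, 8 and 9 had 54.5, 57.3 and 49.7%, and the part of the 7 libraries in the shares was not tested. The Fgb share differed by 1.13 points between Dapa and Case (exact permutation q = 0.189). Between Dapa and Ctrl the differences were 4.92 points for Fgg (exact permutation q = 0.189), -4.28 for Fga (q = 0.224) and -0.64 for Fgb (q = 0.377).

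The 3 shares add up to the whole, so they are not independent of each other. These calls did not depend on Case 1: leaving out each mouse in turn kept the Case minus Ctrl difference of the Fgg share between 12.7 and 16.0 points. With GENCODE exon lengths in place of those behind the deposited FPKM, Fgg made up 56.3% in Case, 41.7% in Ctrl and 46.5% in Dapa. Fga then stood above Fgg in Dapa, with 50.6%, so the order of Fga and Fgg there depends on the lengths used. The differences of the Fgg share were 14.6 points for Case minus Ctrl (exact permutation q = 0.0195) and -9.80 points for Dapa minus Case (q = 0.0260). Exons of Fgg share 115 bases with Gm30097, a long non-coding RNA gene on the other strand. The kit marks strand, and whether the counting used it is not given in the sources used here.

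**Figure D3:**
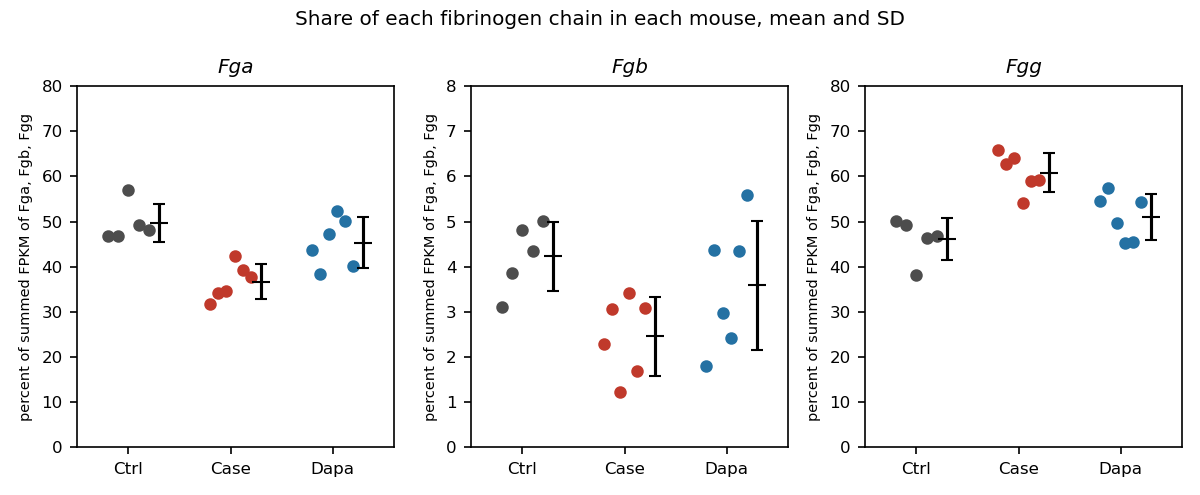
Percent of the summed FPKM of Fga, Fgb and Fgg that each chain made up, 1 point per mouse, with the mean and SD of each group beside the points (the Fgb axis ends at 8% and the others at 80%). The Fgg share of the 6 Case mice, 54.1 to 65.9%, lay above all Ctrl mice, and the Fga share of the Case mice lay below them.

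Whether the chains varied together from mouse to mouse was tested in Case and in Dapa, and not in Ctrl with its 5 mice. In Case, log2(FPKM + 1) of Fga and Fgg had a Pearson r of 0.996 (n = 6, exact permutation p = 0.00556, q = 0.0167 over 6 relations) and a Spearman rho of 0.943 (exact p = 0.0167). For Fga and Fgb r was 0.922 (exact permutation q = 0.025) and rho 0.771 (exact p = 0.103), and for Fgb and Fgg r was 0.929 (exact permutation q = 0.0222) and rho 0.829 (exact p = 0.0583). Without Case 1 and 3, the mice farthest from the median, r was 0.969, 0.804 and 0.813 for these pairs.

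In Dapa only the pair of Fga and Fgg passed, with r = 0.959 (n = 6, exact permutation p = 0.00278, q = 0.0167) and rho = 1 (exact p = 0.00278), and r = 0.984 without Dapa 8 and 12. Fga with Fgb had r = 0.756 and rho = 0.714 (exact permutation q of r = 0.0639, exact p of rho = 0.136). Fgb with Fgg had r = 0.834 and rho = 0.714 (exact permutation q of r = 0.0639, exact p of rho = 0.136). Without the 2 farthest mice these r values were 0.627 and 0.389, so the relation of Fgb with Fgg in Dapa rests on Dapa 8 and 10.

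Genes whose levels were most like those of the chains were sought across the 17 mice. Likeness is the Pearson r of log2(FPKM + 1) over 11448 genes with a mean of at least 1 FPKM, given without a test, and the mice fall into 3 groups and include the high values of Case 1, so they are not independent points. Nearest to Fgg were H2-Ab1 (r = 0.942) and H2-DMb2 (0.939), which serve MHC class II presentation, C1ra (0.939) and C4b (0.928) of the classical complement pathway, and Il18bp (0.917), which binds interleukin-18. Nearest to Fga were Cfi (0.922), the complement factor I gene, then H2-Ab1 (0.919), H2-DMb2 (0.919), C4b (0.909) and Il18bp (0.902). Nearest to Fgb were Saa1 (0.928), an acute phase apolipoprotein, Lrg1 (0.891), Cfi (0.888), C1ra (0.866) and Cp (0.857), which encodes ceruloplasmin. Fgg and Fga had r = 0.985 with each other over the same mice, and Fgb had r = 0.918 with Fga and 0.913 with Fgg.

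Of these 9 genes near a chain 8 had their highest level in Case 1 and C4b had it in Case 3, the mice with the most Fgg. They were picked for following the chains over the same mice, so these peaks describe the choice and are no separate result. H2-Ab1 measured 158.3 FPKM in Case 1 and 120.0 in Case 3, against 10.2 to 14.2 in Ctrl. Saa1 measured 34.3 FPKM in Case 1, 5.78 in Case 3 and 9.55 in Dapa 8, and at most 1.25 in every other mouse. Dapa 8, which had the most fibrinogen of the Dapa mice, also had the most Lcn2 of them, 8.07 FPKM.

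**Figure D4:**
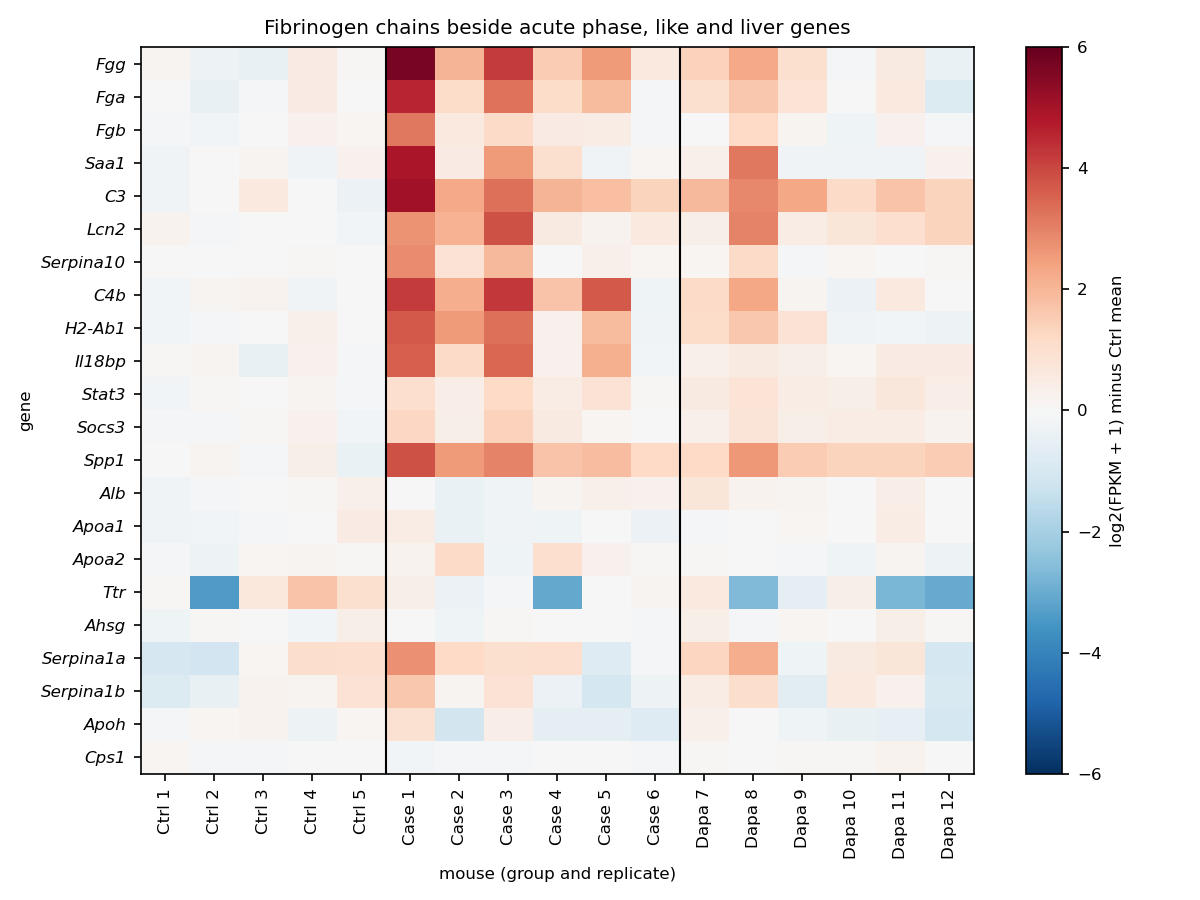
Level of 22 genes (rows) in each of the 17 mice (columns) as log2(FPKM + 1) minus the Ctrl mean, with colours from -6 (blue) to 6 (red) and black lines between groups. Fgg, Fga, C3, C4b and H2-Ab1 are deepest red in Case 1 and Case 3, and Fgb is in Case 1 and Dapa 8. Of the 9 liver markers in the lowest rows, Alb, Apoa1 and Ahsg vary little, Serpina1a, Serpina1b and Apoh are highest in Case 1, and Ttr varies from 0.750 to 57.5 FPKM.

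Since fibrinogen is a liver protein, liver and acute phase markers were set beside it. Of 9 liver markers 0 were called in any comparison by edgeR, and 2 of them in Dapa against Case and 0 in both comparisons with Ctrl had an unadjusted p under 0.05. Their summed level was 23.9 to 101.9 FPKM in Ctrl, 44.6 to 131.9 in Case and 22.4 to 85.3 in Dapa. Alb, the albumin gene, lay between 7.18 and 16.6 FPKM in all mice, and in Case 1 it measured 9.62 FPKM. The liver sum of 131.9 FPKM was that of Case 1, the mouse with the most fibrinogen, and in the other Case mice the sum was 44.6 to 60.9 FPKM. Serpina1a (75.5 FPKM), Serpina1b (11.1) and Apoh (6.60) had their highest level of all mice in Case 1, and their part in the fibrinogen result was not tested. Il6, the interleukin-6 gene itself, had a median of 0 FPKM in each group. Of 19 acute phase and interleukin-6 response genes 12 were tested in Case against Ctrl. Of these 3 rose and 1 fell, with a median log2 fold change of 0.55, where 13% of all genes were called. The log2 fold changes were above 0 for 7 of the 12 and below 0 for 5.

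C3, the central complement component, rose by 3.32 ± 0.66 (q = 0.00774) and Lcn2, which encodes lipocalin-2, by 4.60 ± 1.01 (q = 0.0123) on the log2 scale, and Lcn2 lost its call in limma on log2(FPKM + 1) (1.65, q = 0.0739). Single mice carried part of these sizes: C3 stood at 2.30 without Case 1 and Lcn2 at 3.72 without Case 3, and both stayed called. Stat3, the transcription factor that relays interleukin-6, rose by 0.76 ± 0.19 (q = 0.0202), and lost this call without Ctrl 1, 3 or 5. Il6st, the shared receptor subunit gp130, fell by 0.43 (SE 0.12, q = 0.0289) and lost its call in 5 of the 11 fits that left out a mouse and in 4 of 10 other settings (q up to 0.0777). Socs3, a feedback inhibitor of that pathway, stood at 1.32 ± 0.44 (q = 0.0636). Of 13 genes of the acute phase list tested in Dapa against Ctrl 4 rose and 1 fell, where 29.1% of all genes were called. Between Dapa and Ctrl C3 (2.03), Lcn2 (3.56), Stat3 (0.54) and Socs3 (0.86) rose and Il6st fell (-0.65), Lcn2 stood at 2.48 without Dapa 8, and Socs3 lost its call without Ctrl 2 or 5 and in the fit over all 3 groups (q = 0.110). The part of these genes in the fibrinogen result was not tested.

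Markers of other cell types were set beside the members too, against 13% of all genes called in Case and 29.1% in Dapa. Of 9 tubular injury markers tested 4 rose in Case (Lcn2, which both lists hold, Clu, Spp1 and Krt18). In Dapa 4 of 9 also rose. Their list summed to 142.5 to 211.3 FPKM in Ctrl, 328.7 to 1540 in Case and 327.8 to 782.1 in Dapa. Much of these sums was Spp1, with 76.8 to 131.4 FPKM in Ctrl, 230.7 to 1427 in Case and 231.4 to 612.7 in Dapa. Of 6 podocyte markers 2 rose in Case, Nphs1 and Podxl, and 3 rose in Dapa, these 2 among them, with sums of 62.5 to 79.6 FPKM in Ctrl, 67.9 to 108.0 in Case and 78.4 to 101.6 in Dapa. All 7 proximal tubule markers had log2 fold changes below 0 in both comparisons with Ctrl, and 2 fell in Case, Lrp2 (-0.98 ± 0.17, q = 0.00407) and Slc22a6 (-0.84 ± 0.22, q = 0.0249), and 5 in Dapa. Their sum was 2039 to 2293 FPKM in Ctrl, 1320 to 2468 in Case, with Case 3 and Case 1 lowest, and 1504 to 2018 in Dapa. Of 10 macrophage markers 1, Cd14, rose (1.41 ± 0.38, q = 0.0284), and the summed level was 27.4 to 47.0 FPKM in Ctrl, 28.9 to 203.0 in Case and 25.6 to 62.7 in Dapa. The value of 203.0 was that of Case 3, which had the second highest Fgg, and the other Case mice reached at most 58.0. The share of the macrophage list called, 1 of 10 in each comparison with Ctrl, is below that of all genes. Platelet markers, which would come with clots or blood, summed to 0.725 to 1.11 FPKM in Ctrl and 0.832 to 3.31 in Case and 1.36 to 2.13 in Dapa, where every mouse lay above every Ctrl mouse, and 1 of 6 was high enough to test and was not called. All 5 erythrocyte markers rose in both db/db groups against Ctrl, with medians of 1.84 in Case and 2.26 in Dapa on the log2 scale. The part of these cell types in the levels of the members was not tested.

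Of the members that start coagulation and hold it back, F3, Tfpi and Thbd, none passed the test in any comparison. F3, the tissue factor gene at chr3:121723537-121735048, measured 6.90, 6.69, 6.16, 5.75 and 4.98 FPKM in Ctrl mice 1 to 5. Its lowest, median and highest values were 5.43, 5.62 and 6.35 FPKM in Case and 4.86, 6.33 and 7.41 in Dapa. The groups overlap throughout. The log2 fold changes were -0.17 ± 0.11 (q = 0.358) in Case against Ctrl, 0.11 ± 0.11 (q = 0.698) in Dapa against Case and -0.07 ± 0.12 (q = 0.709) in Dapa against Ctrl.

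Tfpi (chr2:84432855-84476775) encodes the inhibitor of the tissue factor and factor VIIa complex. It measured 0.759, 0.668, 0.684, 0.729 and 0.610 FPKM in Ctrl mice 1 to 5, from 113 to 145 counts. In Case it ran from 0.520 to 0.766 FPKM with a median of 0.574, and in Dapa from 0.636 to 1.06 with a median of 0.937. Of the 6 Dapa mice 4 lay above every Case mouse, and the groups overlap. The log2 fold change of 0.49 ± 0.16 from Case to Dapa had q = 0.256 in edgeR's quasi-likelihood test. Against Ctrl, Case stood at -0.22 ± 0.14 (q = 0.333) and Dapa at 0.26 ± 0.15 (q = 0.205). Leaving out each mouse in turn kept the Dapa against Case value between 0.42 and 0.57.

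Thbd (chr2:148404466-148408188) encodes thrombomodulin, the endothelial receptor that turns thrombin towards activating protein C. It measured 3.81, 4.03, 4.64, 6.45 and 7.19 FPKM in Ctrl mice 1 to 5. Case mice ran from 5.05 to 8.98 FPKM with a median of 7.07, and Dapa mice from 3.69 to 8.53 with a median of 5.77. Case stood above Ctrl by 0.37 ± 0.17 (q = 0.176), Dapa against Case was -0.32 ± 0.19 (q = 0.48) and Dapa against Ctrl was 0.05 ± 0.22 (q = 0.878), all on the log2 scale and none past the test. Of 11 endothelial markers 1, Egfl7, rose in Case against Ctrl (0.47 ± 0.14, q = 0.0455) and 2, Egfl7 and Eng, rose in Dapa against Ctrl. Both shares are below those of all genes, 13% in Case and 29.1% in Dapa. Their sum was 80.8 to 140.0 FPKM in Ctrl, 103.4 to 151.7 in Case and 101.9 to 189.5 in Dapa.

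Plau had the highest Ctrl level of the members with either gene length. Plau (chr14:20836662-20843388), the urokinase gene, measured 156, 93.7, 142.8, 166.9 and 121.5 FPKM in Ctrl mice 1 to 5. Case mice ran from 69.9 to 172.2 FPKM with a median of 128.6, and Dapa mice from 84.9 to 219.8 with a median of 169.2. The groups overlap. The log2 fold changes were -0.19 ± 0.21 (q = 0.593) in Case against Ctrl, 0.31 ± 0.24 (q = 0.597) in Dapa against Case and 0.11 ± 0.22 (q = 0.731) in Dapa against Ctrl. With a term for the 7 libraries the Case against Ctrl value turned to 0.039 (q = 0.928).

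The genes nearest to Plau across the 17 mice were Chst9 (r = 0.885), a sulfotransferase gene, Ndrg2 (0.814), P2rx5 (0.812), an ATP-gated channel gene, AU019823 (0.791) and Ier3 (0.773). Of the members Plau varied most with Plaur (r = 0.631), then with F3 (0.473) and Plat (0.392), and it had r = -0.02 with Fgg. In the 7 libraries Plau measured 142.8 to 166.9 FPKM in Ctrl, 160.4 in Case and 158.5 to 219.8 in Dapa. In the others it measured 93.7 to 121.5, 69.9 to 172.2 and 84.9 to 179.8 FPKM. The part of these libraries in the r values was not tested.

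Plat (chr8:22757744-22782847), which encodes tissue-type plasminogen activator, measured 15.9, 19.0, 19.6, 25.6 and 24.0 FPKM in Ctrl mice 1 to 5. In Case mice 1 to 6 it measured 33, 32.0, 30.5, 24.3, 21.9 and 21.8 FPKM, and in Dapa mice 7 to 12 20.6, 20.6, 26.8, 30.4, 53.1 and 47.0 FPKM. The log2 fold changes were 0.31 ± 0.13 (q = 0.15) for Case and 0.56 ± 0.24 (q = 0.0891) for Dapa against Ctrl, and 0.26 ± 0.22 (q = 0.647) for Dapa against Case.

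Plaur (chr7:24462484-24475968), the gene of the urokinase receptor, measured 0.510, 0.411, 0.367, 0.706 and 0.574 FPKM in Ctrl mice 1 to 5. Case mice 1 to 6 held 0.703, 1.23, 1.19, 0.412, 0.391 and 0.790 FPKM, and Dapa mice 7 to 12 held 0.699, 0.657, 0.309, 0.951, 1.58 and 2.11 FPKM. The log2 fold changes were 0.53 ± 0.32 (q = 0.29) for Case and 0.91 ± 0.40 (q = 0.101) for Dapa against Ctrl, and 0.38 ± 0.41 (q = 0.723) for Dapa against Case.

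The 3 highest Dapa values of Plat and of Plaur came from Dapa 10, 11 and 12, which are all among the 7 libraries. In these 3 mice Plat measured 30.4 to 53.1 FPKM, and in Dapa 7, 8 and 9 it measured 20.6 to 26.8. With a term for the 7 libraries Dapa against Case turned to -0.044 for Plat (q = 0.951) and to -0.11 for Plaur (q = 0.948). Plat passed against Ctrl without Dapa 7 (0.67, q = 0.0356) or Dapa 8 (0.67, q = 0.043), and Plaur without Dapa 9 (1.11, q = 0.0278).

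The members sit in a wider system, for which 47 other genes of coagulation and fibrinolysis were listed, 45 of them in the table. In Case against Ctrl 9 rose and 4 fell of 34 tested, in Dapa against Ctrl 7 rose and 9 fell of 34, and in Dapa against Case 0 of 33 were called by edgeR, where 5 had an unadjusted p under 0.05 and DESeq2 called 1, F8. These are 38.2% of the tested genes of the lists in Case and 47.1% in Dapa against Ctrl, where 13% and 29.1% of all genes were called. Both comparisons with Ctrl share the Ctrl mice. The count of 13 called in Case against Ctrl was 6 to 8 without Ctrl 1, 2, 3 or 5 or without Case 1, 2 or 3, and that of 16 in Dapa against Ctrl was 15 to 17 without any single mouse.

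Among 17 other coagulation factors and cofactors, 2 rose of 10 tested in Case, Vwf and Kng2. Vwf, the platelet-binding von Willebrand factor of endothelium, had a mean of 0.0860 FPKM in Ctrl, 0.240 in Case and 0.352 in Dapa. It rose by 1.39 ± 0.42 in Case (q = 0.0466) and by 1.92 ± 0.40 in Dapa (q = 0.00403), and the Case call was lost in 7 of the 11 fits that left out a mouse (q up to 0.110) and in 5 of 9 other settings (q up to 0.0838). F8, encoding factor VIII, was lower in Dapa than in Ctrl (-0.95 ± 0.12, q = 0.000303) without overlap, and stood at -0.26 ± 0.19 in Case (q = 0.399). In Dapa against Ctrl 2 genes of this list rose and 4 fell of 10.

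Among the other anticoagulants 2 rose and 1 fell of 9 tested in Case, and 2 fell of 8 in Dapa. Proc, the protein C gene, measured 84.8, 80.8, 86.9, 69.8 and 71.6 FPKM in Ctrl mice 1 to 5, 29.6 to 46.2 in Case and 23.3 to 48.1 in Dapa. No db/db mouse reached the Ctrl range, and the log2 fold changes were -1.12 ± 0.13 (q = 0.00042) in Case and -1.27 ± 0.16 (q = 0.000359) in Dapa. Proz, the protein Z gene, fell by 0.95 in Dapa (SE 0.22, q = 0.0065) and stood at -0.58 ± 0.28 in Case (q = 0.195).

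Serpina10, which encodes the protein Z dependent inhibitor of factor Xa, had its highest levels in Case 1, Case 3 and Dapa 8. It measured 0.0634 to 0.133 FPKM in Ctrl, and 6.88, 1.01, 3.22, 0.0944, 0.349 and 0.169 FPKM in Case mice 1 to 6. Dapa 8 had 1.43 FPKM and the other Dapa mice at most 0.202. It rose by 4.24 ± 1.07 in Case (q = 0.0227). That call was lost without Ctrl 1, 2, 3 or 5 (q up to 0.0605), with the replicate block (3.62, q = 0.0579) and in limma with pseudocounts of 0.1 (2.26, q = 0.0848) and 1 (1.01, q = 0.154), and without Case 1, 2, 3, 5 or 6 the gene did not pass the filter on low counts, nor did it in Dapa against Ctrl.

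Of the thrombin and protease receptors 2 of 3 tested rose against Ctrl in both db/db groups. F2r, the main thrombin receptor, measured 13.1, 10.9, 8.21, 17.75 and 17.4 FPKM in Ctrl mice 1 to 5, 17.83 to 29.7 in Case and 21.5 to 38.8 in Dapa. It rose by 0.91 ± 0.19 in Case (q = 0.0102) and by 0.96 ± 0.20 in Dapa (q = 0.00427), and its Case call was lost with the replicate block (q = 0.053). F2rl1, a receptor cut by trypsin-like proteases and by the tissue factor complex, rose by 0.67 ± 0.19 in Case (q = 0.0409) and by 0.91 ± 0.18 in Dapa (q = 0.00354). Its Case call was lost in 8 of the 11 fits that left out a mouse (q up to 0.103) and with the replicate block (q = 0.0808).

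Among the other fibrinolysis genes 3 rose and 3 fell of 12 tested in Case, and 3 rose and 3 fell of 13 in Dapa against Ctrl. The same 3 genes, Serpinf2, Pzp and Hrg, fell in both comparisons. Serpinf2, the main plasmin inhibitor, measured 62.5, 61.7, 67.7, 42.9 and 66.7 FPKM in Ctrl mice 1 to 5, 14.6 to 36.7 in Case and 13.4 to 38.0 in Dapa. It fell by 1.44 in Case (SE 0.20, q = 0.00116) and by 1.37 in Dapa (SE 0.22, q = 0.00115), without overlap. Pzp, a broad protease inhibitor of the alpha-2-macroglobulin family, fell by 3.24 in Case (SE 0.41, q = 0.000673) and by 3.01 in Dapa (SE 0.34, q = 0.000183). Hrg, the histidine-rich glycoprotein that binds plasminogen and fibrinogen, fell by 2.29 in Case (SE 0.51, q = 0.0129) and by 2.38 in Dapa (SE 0.41, q = 0.00157).

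Those that rose include Serpine2, an inhibitor of thrombin and of plasminogen activators, by 1.32 ± 0.19 in Case (q = 0.00129) and by 1.15 ± 0.15 in Dapa (q = 0.000447). Anxa2, part of a cell surface receptor for plasminogen and Plat, rose by 0.71 ± 0.21 in Case (q = 0.041) and by 1.06 ± 0.24 in Dapa (q = 0.00696), and its Case call was lost in 8 of the 11 fits that left out a mouse (q up to 0.0949) and in 5 of 10 other settings (q up to 0.146). Plg, the plasminogen gene, stood at -0.31 ± 0.34 (q = 0.595) in Case and -0.094 ± 0.33 (q = 0.857) in Dapa against Ctrl. Plg and Kng2 are outside the rule for named genes and were chosen after their values were seen.

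**Figure D5:**
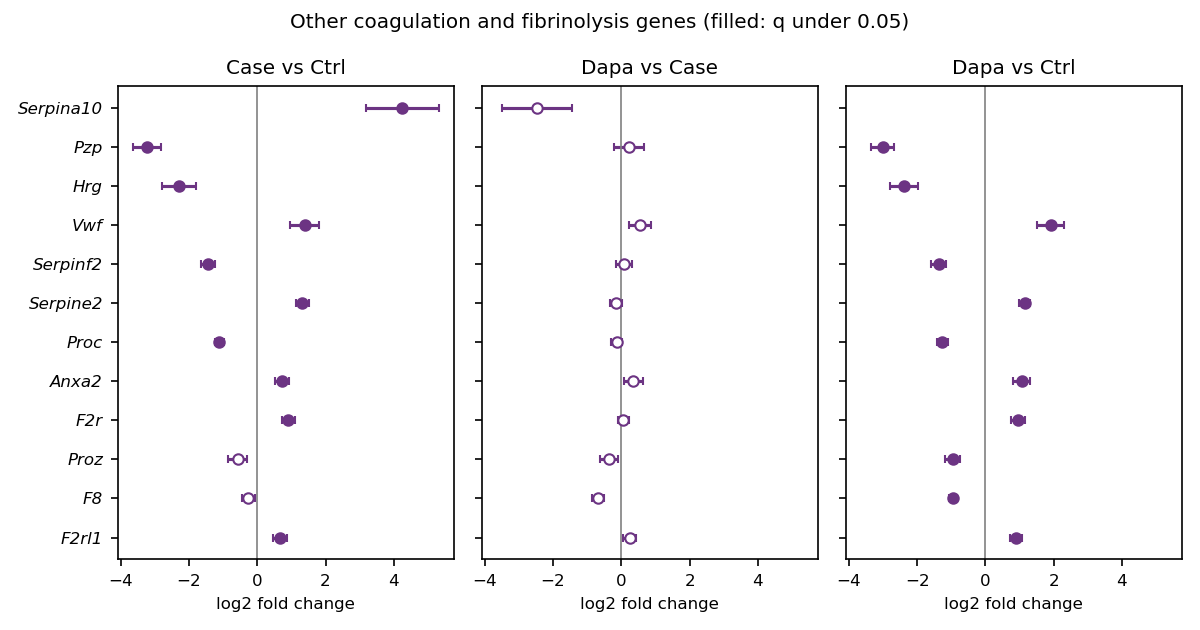
Log2 fold change with standard error of the 12 other coagulation and fibrinolysis genes named by rule, in Case and in Dapa against Ctrl and in Dapa against Case, with filled points for q under 0.05. Serpina10 has no point in Dapa against Ctrl and Hrg none in Dapa against Case, where they did not pass the filter on low counts. No point is filled in Dapa against Case, and Serpinf2, Pzp, Hrg and Proc lie below 0 in both comparisons with Ctrl.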

How the data were processed

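Whole kidneys of 17 mice were profiled by RNA-seq of poly(A) RNA in strand-specific libraries. The authors used HISAT2 for alignment to mm10 and Stringtie for quantification, and deposited raw counts per gene for each mouse. They also deposited FPKM, which equalled the count over library total and gene length within 0.00553% for genes with at least 10 counts, so it carries no TMM factor although the study's methods name one. The table's 3 entries broken over several lines were left out, leaving 22558 genes.

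Counts were fitted for each pair of groups with edgeR 4.0.16 (TMM, filterByExpr, glmQLFit and glmQLFTest) in R 4.3.3, with Benjamini-Hochberg adjustment over all genes tested and a threshold of q under 0.05. On simulated counts with 4-fold changes this recovered 97.4% of 192 changed genes for Case against Ctrl, 96.4% of 194 for Dapa against Case and 96.4% of 194 for Dapa against Ctrl, with 4, 9 and 6 false calls over 14582, 14573 and 14647 genes. The changed genes were drawn at random from those tested. Recovery was not measured for genes as variable as Fgg, whose highest Case value was 37.5 times its lowest. All 9 members passed the filter in every comparison. Chain shares were compared by two-sided exact permutation tests (scipy 1.17.1). Correlations used log2(FPKM + 1). Libraries of a group were compared pairwise for duplicates and differed by a chi-square of at least 15.05 per gene over 40 pairs. Nothing in the labels gives an extraction or sequencing batch.

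The members and gene lists were chosen with earlier results of these data known. Named genes were the 9 members, up to 12 other coagulation and fibrinolysis genes with q under 0.05 and the largest absolute log2 fold change, up to 5 called genes of each marker list, and the 5 genes most like Fgb, Plau and any called member. Alternatives were DESeq2 1.42.0, median ratio and upper quartile scaling, other filters, 1 fit over 3 groups, limma 3.58.1 on log2(FPKM + 1) or log2(FPKM + 0.1), a replicate block, leaving out each mouse, and, chosen after seeing the data, a term for the 7 libraries and GENCODE exon lengths. Fgb had 17 to 700 counts per mouse, and its 17 was the lowest count of a member in any library. RefSeq promoter windows were given for 6 of the 9 members. 1 podocyte marker that the rule for named genes would give is not reported by name here.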

Additional observations from a re-analysis of the deposited data

Results flagged for a closer look

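In the groups of 5 or 6 mice, the highest and lowest value of each member was set against the gap to its nearest neighbour (Dixon's criterion). Of 27 gene and group combinations 5 had a mouse far from the others, and chance marks about 1 in 20 groups of normally distributed values. The values used were FPKM without logs, for which that rate was not checked. Case 1 was the highest of its group for all 3 fibrinogen chains: Fga at 180.1 FPKM against 71.4 in the next mouse, Fgb at 12.9 against 2.54, and Fgg at 373.4 against 131.7. The 3 genes are 3 readings of the same mouse. Dapa 8 was far above its group for Fgb, with 2.61 FPKM against 0.910 in the next mouse. F3 in Case 6, at 6.35 FPKM against 5.75 in the next mouse, stood apart within a group whose values otherwise span 5.43 to 5.75 FPKM.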

How the results depend on the processing

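Between Case and Ctrl 2 members were called, and 1 with limma at either pseudocount and with a replicate block, while leaving out each mouse gave 1 to 3. Fgg was called in every setting run, with log2 fold changes of 2.71 to 4.12. Fga stood at 1.97 (q = 0.0699) and 2.08 (q = 0.0638) in limma with pseudocounts of 1 and 0.1. Fgb was also called with upper quartile scaling (q = 0.0474), at least 10 counts in every library (q = 0.0485) and 1 fit over 3 groups (q = 0.0357). Between Dapa and Case 0 members were called, 1 with DESeq2, and 0 to 0 when leaving out each mouse. Between Dapa and Ctrl 0 were called, and 0 to 2 when leaving out each mouse. The cause of these shifts was not tested. Numbers 1 to 5 are shared by Ctrl and Case, but do not pair the mice: same-numbered mice had correlations of -0.0677 to -0.0429 and 0 of 5 matched their own number best. The replicate block left Fgg called (3.26, q = 0.0415) and Fga not (2.40, q = 0.0545), 1 called member in all, with 6 of the other pathway genes in place of 13, and 707 genes in all in place of 1895. Values that turned sign, none of them called, were Plau in Case against Ctrl (0.039), Plat (-0.044) and Plaur (-0.11) in Dapa against Case with the term for 7 libraries, and F3 in Dapa against Ctrl in limma (0.037 and 0.042 with pseudocounts of 1 and 0.1). In Dapa against Ctrl, leaving out each mouse gave -0.14 to 0.0085 for F3, -0.036 to 0.77 for Fgb, -0.076 to 0.19 for Thbd and -0.0054 to 0.25 for Plau. Genes called in all moved from 1895 to 1219 with the 7-library term and to 1002 to 2154 without a mouse, and for Dapa against Case from 0 to 202 in DESeq2, 5 in 1 fit over 3 groups and 7 without Dapa 7. The lowest count of a member in any library was 17, for Fgb in Dapa. The chain shares kept every call under the alternatives run, which held no term for the 7 libraries. The correlations were rerun only with a pseudocount of 0.1, which kept the calls of r, and by rank, where Fga and Fgb (exact p = 0.103) and Fgb and Fgg (exact p = 0.0583) in Case missed the threshold.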
